A study of Mus musculus with 12 samples.

Results

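The interferon-stimulated genes are a set of 49 mouse genes that type I or type II interferon is known to induce, grouped by role into 11 families. Their messenger RNA was followed on 12 Illumina bead arrays of primary mouse embryonic fibroblasts (MEFs), cells grown out of the connective tissue of embryonic day 15.5 embryos of strain C57BL6/J. Members were all probes of the listed genes by the platform annotation, and a gene was measured when the detection p of a probe was under 0.01 on at least 3 arrays. A probe under that detection p on an array is called above background there. Of the 49 genes, 45 had a named probe and 30 were measured, out of 8420 genes measured in all. The 30 genes had 45 of the 73 named probes, and each gene was read from its brightest measured probe.

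The arrays formed 4 groups of 3 labelled biological replicates. Control MEFs were labelled Cry1+/-Cry2+/-, although the series' design text calls them WT, and they carried 1 working copy of each cryptochrome gene by the label. The double knockout (dKO) MEFs were Cry1-/-Cry2-/- and lack both cryptochromes, the repressor proteins of the circadian clock. Cells of each genotype were kept for 16 hours with dexamethasone at 1 µM (Dex), a man-made glucocorticoid, or with ethanol alone (EtOH). Nothing in the labels says whether the replicates came from separate embryos or cultures, so p-values measure the spread between these samples. By its title, the series asks how cryptochromes act on the glucocorticoid receptor.

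Interferons are secreted signals of infection, and most cells answer them by switching on a shared antiviral gene program. Type I interferon acts through the kinases JAK1 and TYK2 on a complex that includes STAT2 and IRF9 and binds the interferon-stimulated response element (ISRE). Type II interferon acts through the gamma-activated site (GAS). Fibroblasts keep a low tonic activity of the program without infection, and glucocorticoids are known to dampen parts of it in immune cells.

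Short stretches of the promoters are shown first, because these elements define how the program is read in the DNA. RefSeq promoter windows (build GRCm38.p6, from 250 bases before to 50 bases after the start) matched 37 of the 49 genes and 24 of the 30 measured ones. The ISRE core was searched as GAAANNGAAA, the GAS core as TTCNNNGAA and the glucocorticoid response element as AGAACANNNTGTTC, on both strands. In the next lines, capitals mark each ISRE core, in either orientation, with up to 20 bases on each side. The 8 genes were taken from those that differed between groups.
Isg15, chr4:156200855-156200916, minus strand: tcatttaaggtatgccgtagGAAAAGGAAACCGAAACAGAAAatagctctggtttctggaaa
Rsad2, chr12:26456543-26456592, minus strand: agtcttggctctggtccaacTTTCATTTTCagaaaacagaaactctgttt
Ifit3, chr19:34583353-34583436, plus strand: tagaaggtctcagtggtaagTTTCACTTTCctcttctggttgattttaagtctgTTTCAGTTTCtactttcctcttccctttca
Gbp2, chr3:142620584-142620633, plus strand: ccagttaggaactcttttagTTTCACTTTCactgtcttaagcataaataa
Gbp3, chr3:142559979-142560034, plus strand: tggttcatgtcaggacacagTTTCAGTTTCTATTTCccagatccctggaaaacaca
Igtp, chr11:58199502-58199551, plus strand: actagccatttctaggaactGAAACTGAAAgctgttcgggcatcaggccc
Stat2, chr10:128270256-128270305, plus strand: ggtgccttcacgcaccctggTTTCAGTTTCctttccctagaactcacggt
Bst2, chr8:71537567-71537622, minus strand: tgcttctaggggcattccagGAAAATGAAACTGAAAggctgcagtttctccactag

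The ISRE core was in the windows of 18 of 37 listed genes (48.6%), against 3.99% of all 27025 genes with a window, and in 12 of 24 measured ones, against 3.79% of 6883 measured genes. The GAS core was in 10 of 37 (27.0%), against 9.55% of all genes, and in 9 of 24 measured ones, against 8.25%. Both cores were in Bst2, Eif2ak2, Ifitm3 and Igtp, and the letters of the 2 cores overlapped in Bst2 and Ifitm3. Neither was in the windows of Ch25h, Cmpk2, Irf7, Irf9, Lgals3bp, Oasl2 and Trim25. The glucocorticoid response element was in 0 of the 37 genes and in 14 of all 27025, and its 6-letter piece AGAACA was in 3 of 37 and in 21.3% of all. A match is a run of letters, and its use by a factor was not measured here. In the next lines capitals mark the GAS core for 3 genes that moved, Irf1 and Igtp, which were lower, and Samhd1, which was higher after Dex.
Irf1, chr11:53769904-53769952, plus strand: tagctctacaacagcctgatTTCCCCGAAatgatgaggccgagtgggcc
Samhd1, chr2:157135303-157135346, minus strand: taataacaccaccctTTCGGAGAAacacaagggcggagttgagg
Igtp, chr11:58199491-58199539, plus strand: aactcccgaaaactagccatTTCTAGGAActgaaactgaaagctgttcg

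Each array read 25697 probes, of which 10953 to 11527 were above background, and the number of arrays limits the precision. A level is a background-corrected, quantile-normalized signal on the log2 scale. A change is a difference of such levels ± the standard error of the model, with n = 3 arrays per group throughout. Genes are called, as higher or lower, where the p adjusted over the 8420 genes was under 0.05. The glucocorticoid target Fkbp5 was 4.50 ± 0.15 higher after Dex in control MEFs and 4.82 ± 0.15 higher in dKO MEFs. Per2, a clock gene that cryptochromes repress, was 2.86 ± 0.13 higher in dKO MEFs in EtOH. The Cry1 probe was above background on 0 of 12 arrays, and the Cry2 probe on 10. The Cry2 means were higher in dKO than in control MEFs, against the label, at 6.63 against 6.16 in EtOH and 6.77 against 6.64 in Dex, and neither difference was called (adjusted p = 0.105 and 0.72). No source used here places these probes in or outside the deleted exons, so they check nothing. Control Dex array 3 and dKO EtOH arrays 1 and 2 stood apart on the third principal component (14.9% of the variance). Their shift was called for 2117 of 8420 genes and for 3 of the 30, namely Adar (-0.71), Irgm1 (0.70) and Parp14 (-0.63).

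Of 18 listed macrophage markers, 14 were measured in these cultures, and which cells carried these transcripts was not tested. Lyz2 (lysozyme) was at a log2 level of 14.59 to 15.42 on every array. The probes of Itgam and Ptprc were not above background on 3 arrays, and Csf1r and Cd68 had no named probe. Of the fibroblast markers, 10 of 11 were measured. The defining markers of endothelial cells Pecam1 and Cdh5, of B cells Cd79a and Ms4a1, of plasmacytoid dendritic cells Siglech and of epithelium Krt8 and Cdh1 were not above background on 3 arrays. Of these lists, 2 of 7 endothelial markers (Emcn and Vwf), 1 of 7 lymphocyte markers (Cd3e) and 1 of 5 plasmacytoid dendritic cell markers (Tlr7) were measured, and their values are given with those of the macrophage markers.

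**Figure D1:**
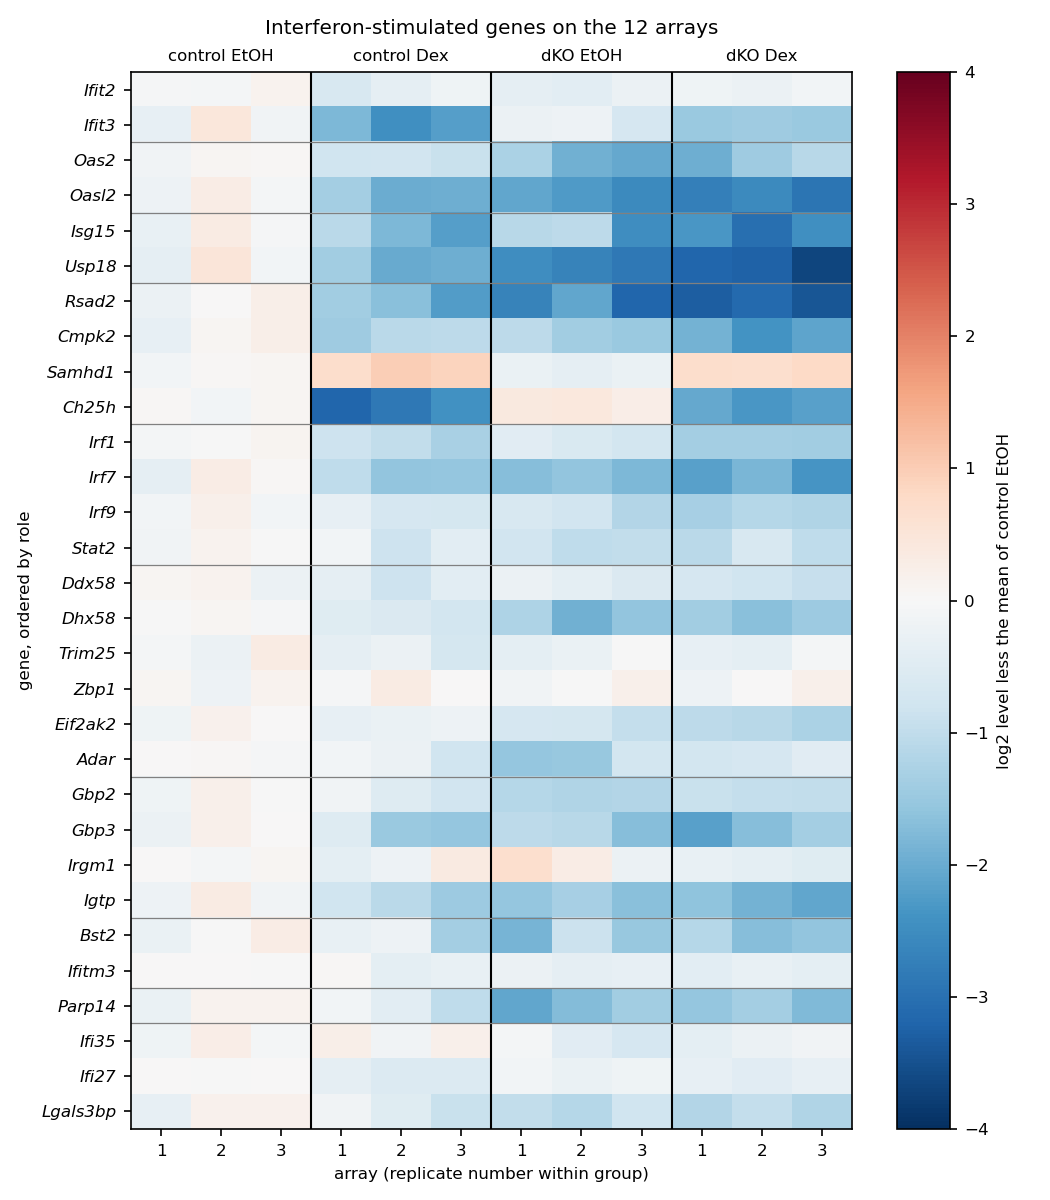
Log2 level of the 30 measured interferon-stimulated genes (rows, ordered by role) on the 12 arrays (columns), less the mean of the control EtOH arrays of the gene. Blue is lower and red higher, and most rows are blue in control Dex, dKO EtOH and dKO Dex, with Samhd1 red after Dex.

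In control MEFs without hormone, 29 of the 30 genes were above background on all 3 arrays. The rule of detection on at least 3 arrays, of any group, sets this count in part. In control Dex this held for 27 genes, in dKO EtOH for 25 and in dKO Dex for 25. Averaged over the 30 genes, the log2 level lay 0.63 to 0.95 below the control EtOH mean on the control Dex arrays. The dKO EtOH arrays lay 0.91 to 1.12 below it and the dKO Dex arrays 1.28 to 1.30 below it. On this average the control EtOH arrays were the highest and the dKO Dex arrays the lowest, and the ranges of control Dex and dKO EtOH overlapped. The map of levels by array shows the single genes behind it.

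Dex lowered most of the set in control MEFs. Of the 30 genes, 18 fell and 1 rose, where 11.4% of all genes fell and 8.85% rose. The median change was -0.56, against -0.04 over all genes. The largest falls were those of Ch25h (7.05-fold), Ifit3 (4.45-fold), Usp18 (3.44-fold), Oasl2 (3.42-fold), Rsad2 (3.40-fold) and Isg15 (3.23-fold), and Samhd1 rose 1.81-fold. In 18 of the 19 called genes the ranges of the 2 groups did not overlap, Gbp2 being the exception. With 3 arrays per group a call largely sets this, and the share over all called genes was not computed. Irf7, among the genes that fell, was measured only through the control EtOH arrays, so its fall was largely set by the detection rule. Without control EtOH array 2, 12 genes were called, and 12 of the 19 calls held in every alternative tried.

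In dKO MEFs the hormone was called for 5 of the set. Of the 30 genes, 4 fell and 1 rose, where 5.99% of all genes fell and 8.62% rose. The median change was -0.26, or -0.07 with genes at background set to their bounds, against 0.03 over all genes. Ch25h fell 5.81-fold, Ifit3 2.12-fold and Irf1 1.72-fold, Samhd1 rose 2.03-fold, and Cmpk2 fell to background. These 5 genes were all among the 19 called in control MEFs. The number of calls was 13 without dKO EtOH array 3 and 3 without the 3 arrays that stood apart, where Ifit3 (-0.78, adjusted p = 0.175) and Cmpk2 were no longer called. With every measured probe adjusted as a separate item, 6 genes fell on at least 1 probe and 1 rose. Whether the response itself differed between genotypes is the interaction, given further on.

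**Figure D2:**
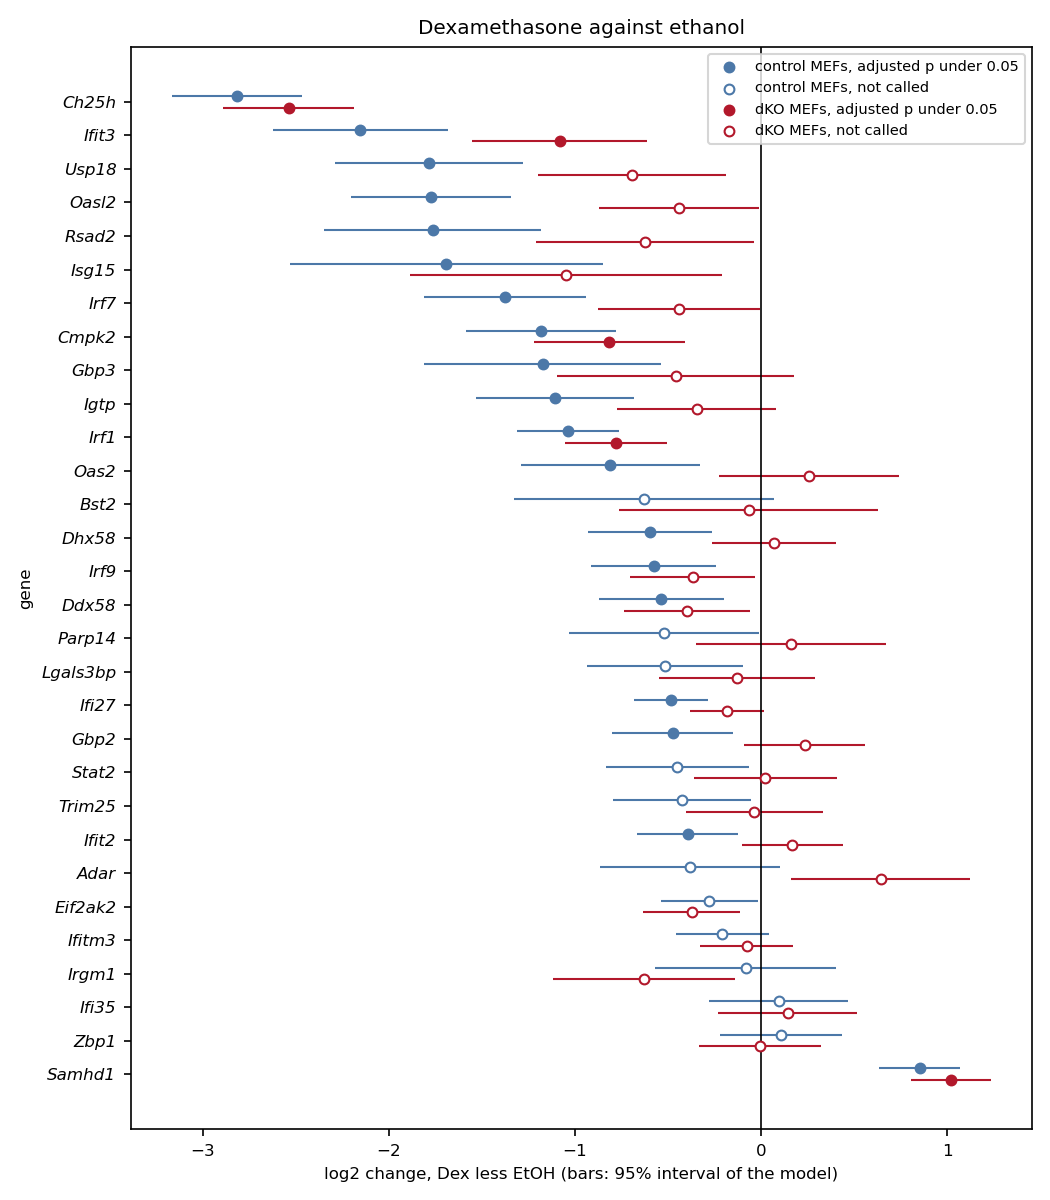
Log2 change with Dex of each of the 30 genes (rows) in control (blue) and dKO (red) MEFs, as points with the 95% interval of the model. Filled points are called at an adjusted p under 0.05, as for 19 genes in control and 5 in dKO MEFs, and the filled points lie left of 0 except those of Samhd1.

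Without hormone, the set stood lower in the knockout. In EtOH, 20 of the 30 genes were lower in dKO than in control MEFs and 0 were higher, where 15.8% of all genes were lower and 10.7% higher. The median difference was -0.95, against -0.05 over all genes. Of the genes above background on all arrays of both groups, Usp18 was 6.36-fold lower on its brightest probe, Oasl2 4.92-fold, Parp14 3.31-fold and Dhx58 2.98-fold. Without the 3 arrays that stood apart this order changed, with log2 differences of -2.48 for Isg15, -1.57 for Dhx58 and -1.39 for Parp14. Rsad2 and Oas2 were also lower, but were above background on 1 of 3 dKO EtOH arrays, so their folds are not ranked with these. None of the 20 genes had overlapping ranges, which the call itself largely sets, and 16 of the 20 were called in every alternative tried. Irf7, among the 20, was measured only through the control EtOH arrays, so its difference was largely set by the detection rule. In these bulk samples fewer cells of a type and less RNA per cell cannot be told apart. This comparison and that of Dex in control MEFs share the 3 control EtOH arrays.

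In the presence of Dex, 12 of the 30 genes were lower in dKO MEFs and 2 were higher, where 9.81% of all genes were lower and 9.89% higher. The median difference was -0.52, or -0.40 at the bounds, against 0.01 over all genes. All 12 were also among the 20 that were lower in EtOH. Usp18 was 2.99-fold lower, Parp14 2.06-fold, Oasl2 1.95-fold, Dhx58 1.88-fold and Eif2ak2 1.83-fold, whereas Ifit3 was 1.62-fold and Ch25h 1.55-fold higher. Leaving out control Dex array 1, dKO Dex array 1 or dKO Dex array 3 left 9 calls each, and 18 genes were called without the 3 arrays that stood apart. Of the 14 calls 7 held in every alternative tried, and those of Oas2 and Gbp2 were each lost in 17 of 25. Irf7, among the 12, was above background on 1 of 3 control Dex arrays and 0 of 3 dKO Dex arrays, so its difference here lies near background.

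**Figure D3:**
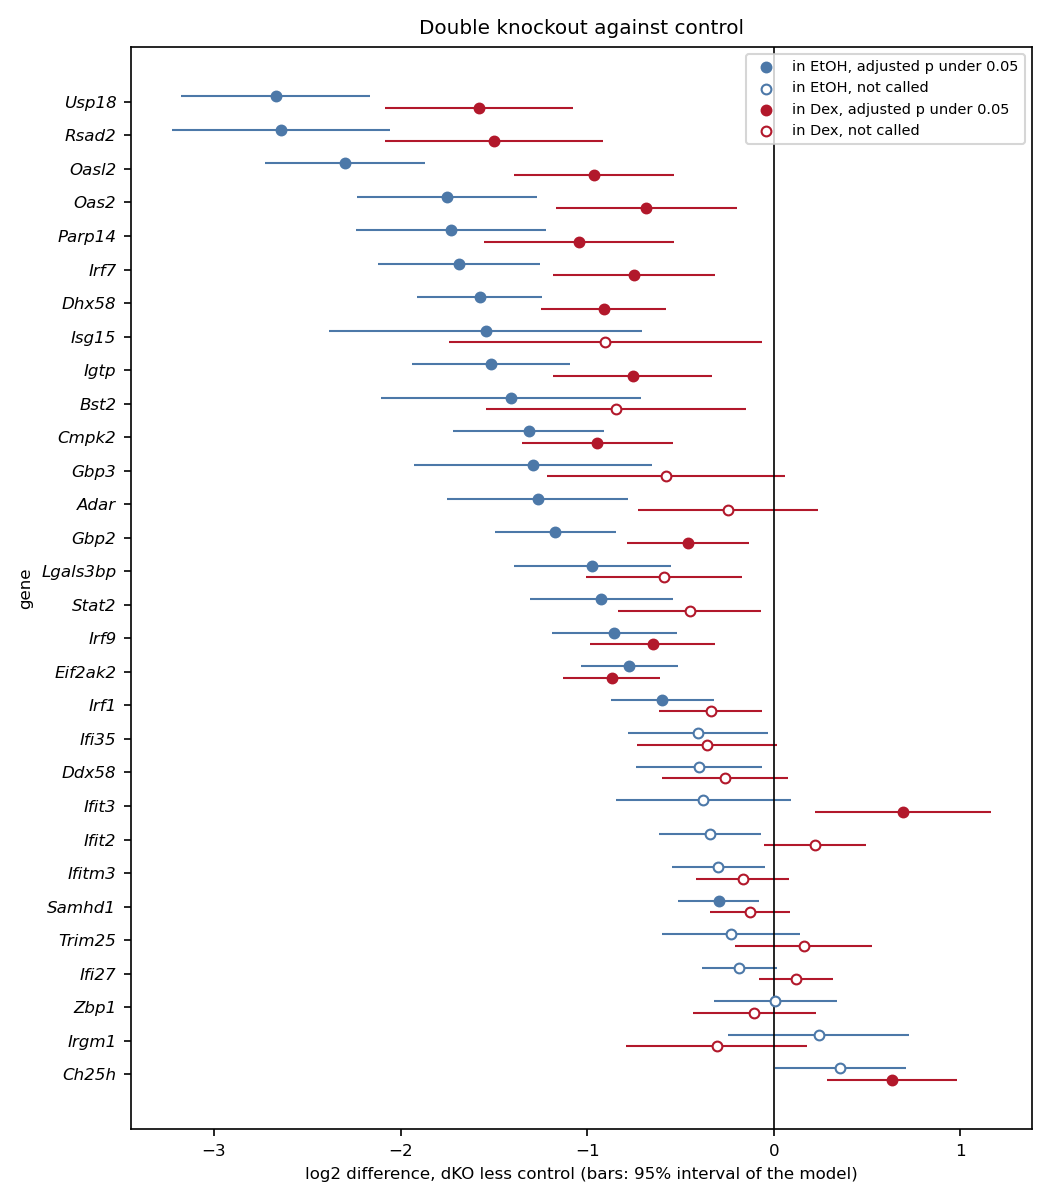
Log2 difference of dKO less control MEFs for each of the 30 genes (rows) in EtOH (blue) and in Dex (red), as points with the 95% interval of the model. Filled points are called, as for 20 genes in EtOH, all lower, and for 14 in Dex, of which Ifit3 and Ch25h were higher.

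The IFIT proteins bind RNA and limit the translation of viral messages, and 2 of the 3 listed genes were measured, Ifit1 being at background. Ifit3 read 11.57, 12.34 and 11.73 in control EtOH and 10.09, 9.41 and 9.67 in control Dex. In dKO MEFs it read 11.64, 11.67 and 11.20 in EtOH and 10.39, 10.47 and 10.40 in Dex. The EtOH arrays of both genotypes overlapped and lay above all Dex arrays, and dKO Dex lay above control Dex. Dex changed it by -2.15 ± 0.22 in control (adjusted p = 3.37e-05) and by -1.08 ± 0.22 in dKO MEFs (adjusted p = 0.00607). It was 0.69 ± 0.22 higher in dKO than in control MEFs in Dex (adjusted p = 0.0415), a call that was lost in 12 of 25 alternatives, among them the mean of the measured probes and the fit without the arrays that stood apart. With probes adjusted as separate items, both other measured Ifit3 probes fell with Dex in control MEFs, by 1.84 and 1.81. In dKO MEFs they changed by -2.09 (adjusted p = 0.00981) and -1.56, the latter not called (adjusted p = 0.072). In EtOH the 2 genotypes differed by -0.38 (95% interval -0.85 to 0.10), which was not called. Ifit3b had no named probe, and whether the Ifit3 probe also reads it was not tested. Ifit2 read 8.50, 8.47 and 8.71 in control EtOH and 7.92, 8.20 and 8.38 in control Dex, a fall of 0.39 (adjusted p = 0.0435) that was lost in 15 of 25 alternatives.

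Oligoadenylate synthases make the oligoadenylates that switch on RNase L, and the related Oasl2 takes part in antiviral RNA sensing. Oasl2 read 10.08, 10.56 and 10.20 in control EtOH and 8.92, 8.28 and 8.32 in control Dex. It read 8.21, 8.01 and 7.73 in dKO EtOH and 7.55, 7.72 and 7.35 in dKO Dex. The 4 groups did not overlap, in the order control EtOH, control Dex, dKO EtOH, dKO Dex. Dex changed it by -1.77 ± 0.20 in control MEFs (adjusted p = 7.32e-05), and by -0.44 ± 0.20 in dKO MEFs, which was not called (adjusted p = 0.154). The knockout changed it by -2.30 ± 0.20 in EtOH (adjusted p = 1.14e-05) and by -0.96 ± 0.20 in Dex (adjusted p = 0.00488). Oas2 read 7.38, 7.60 and 7.56 in control EtOH, 6.73, 6.75 and 6.64 in control Dex, and 5.47 to 6.41 on the 6 dKO arrays. It was above background on 1 of 3 arrays in each dKO group, and Oas1a, Oas3 and Oasl1 were not measured.

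ISG15 is a ubiquitin-like protein that is joined to other proteins during the response, and USP18 removes it and restrains the type I receptor. Usp18 read 10.62, 11.47 and 10.88 in control EtOH and 9.58, 8.98 and 9.05 in control Dex. It read 8.51, 8.32 and 8.13 in dKO EtOH and 7.82, 7.75 and 7.31 in dKO Dex. Again the 4 groups did not overlap and kept the same order as Oasl2. Dex changed it by -1.78 ± 0.23 in control MEFs (adjusted p = 2.28e-04) and by -0.69 ± 0.23 in dKO MEFs (adjusted p = 0.0666). With probes adjusted as separate items, both other Usp18 probes fell with Dex in dKO MEFs, by 1.02 (adjusted p = 0.0417) and by 1.64 (adjusted p = 0.0162). The knockout changed the gene by -2.67 ± 0.23 in EtOH (adjusted p = 1.28e-05) and by -1.58 ± 0.23 in Dex (adjusted p = 5.73e-04). In EtOH the other 2 probes differed by -2.27 (adjusted p = 2.71e-04) and by -0.88, which was not called (adjusted p = 0.109), and the mean of the 3 probes by -1.94. Isg15 itself read 9.85, 10.47 and 10.08 in control EtOH and 9.07, 8.34 and 7.92 in control Dex. In dKO MEFs it read 9.02, 9.10 and 7.65 in EtOH and 7.81, 7.13 and 7.68 in Dex, where the ranges overlapped. Its fall with Dex in control MEFs was 1.69 (adjusted p = 0.00861), and its difference in dKO EtOH was -1.54 ± 0.38 (adjusted p = 0.0123). That difference was -2.48 without the 3 arrays that stood apart, and it was not called without control EtOH array 2 (adjusted p = 0.0512).

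**Figure D4:**
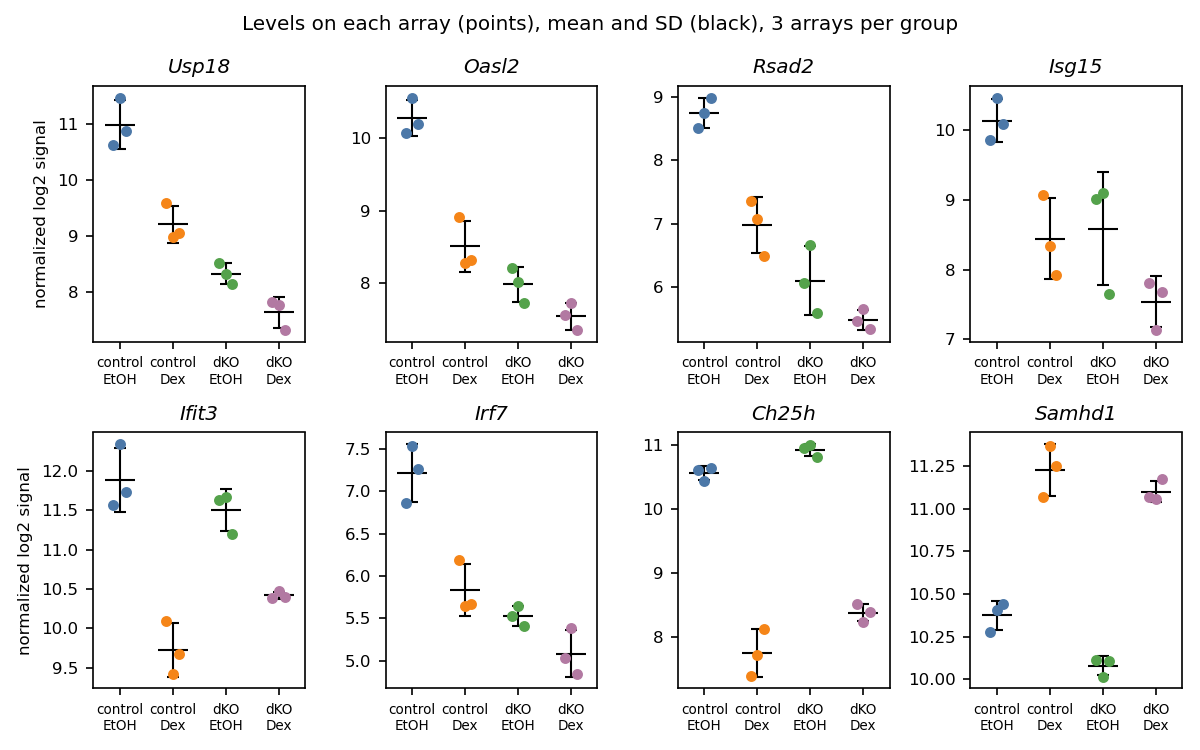
Log2 level of 8 interferon-stimulated genes on every array (points) with the mean and SD of each group of 3 (black), each panel on its own axis. Usp18 and Oasl2 step down over the 4 groups, Ch25h and Ifit3 are low in both Dex groups, and Samhd1 is high in both Dex groups.

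Rsad2 encodes viperin, which makes a chain-terminating nucleotide, and Cmpk2 encodes a kinase that feeds this pathway. Rsad2 read 8.50, 8.75 and 8.98 in control EtOH and 7.36, 7.08 and 6.49 in control Dex. In dKO EtOH it read 6.06, 6.66 and 5.59, above background on 1 array, and dKO Dex was at background on all 3. Every control EtOH array was above every control Dex array, and those lay above dKO Dex. The fall with Dex in control MEFs was 1.77 (adjusted p = 6.64e-04). The knockout difference was -2.64 ± 0.27 in EtOH (adjusted p = 3.57e-05), and in Dex Rsad2 was at least 1.58-fold lower (adjusted p = 0.00214). Cmpk2 read 7.25, 7.66 and 7.82 in control EtOH, 6.15, 6.51 and 6.52 in control Dex and 6.53, 6.17 and 6.09 in dKO EtOH. On the brightest probe of each gene, Cmpk2 was the one gene called in all 4 comparisons of 2 groups. It was at background on all dKO Dex arrays. The level of the dimmest probes above background gives no fold for its fall with Dex in dKO MEFs (adjusted p = 0.0126), a call lost without the arrays that stood apart. Mx1 and Mx2, GTPases that trap viruses, were not measured.

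Ch25h and Samhd1 were called with Dex in both genotypes, in opposite directions. Ch25h encodes an enzyme that hydroxylates cholesterol to an antiviral oxysterol. Its levels were 10.61, 10.45 and 10.65 in control EtOH and 7.40, 7.72 and 8.14 in control Dex. In dKO MEFs they were 10.96, 11.00 and 10.82 in EtOH and 8.52, 8.24 and 8.39 in Dex. Dex changed it by -2.82 ± 0.16 in control (adjusted p = 3.54e-07) and by -2.54 ± 0.16 in dKO MEFs (adjusted p = 1.04e-06), and both EtOH groups lay far above both Dex groups. Ch25h was 0.63 ± 0.16 higher in dKO than in control MEFs in Dex (adjusted p = 0.016, lost in 4 of 25 alternatives) and 0.36 ± 0.16 higher in EtOH, which was not called (adjusted p = 0.118). Samhd1 encodes an enzyme that depletes the nucleotides retroviruses need. It read 10.28, 10.41 and 10.44 in control EtOH, 11.07, 11.36 and 11.25 in control Dex, 10.11, 10.02 and 10.11 in dKO EtOH, and 11.07, 11.06 and 11.17 in dKO Dex. Its rise was 0.85 ± 0.10 in control (adjusted p = 1.02e-04) and 1.02 ± 0.10 in dKO MEFs (adjusted p = 3.32e-05), and its other measured probe was called higher in both. Its difference in dKO EtOH, -0.30 ± 0.10 (adjusted p = 0.0454), was lost in 15 of 25 alternatives.

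All 4 listed transcription factors were measured and lower in dKO MEFs in EtOH. Irf7 amplifies type I interferon production, and it read 6.85, 7.53 and 7.26 in control EtOH. In control Dex it read 6.19, 5.65 and 5.68, above background on 1 array, and both dKO groups were at background. It was at least 2.08-fold lower in dKO EtOH (adjusted p = 1.12e-04), and it fell by 1.38 with Dex in control MEFs (adjusted p = 4.81e-04). Irf7 passed the detection rule only through control EtOH, so being lower elsewhere was largely set in advance. These p-values are therefore no support for its differences. Irf1, a factor of the type II response, read 11.31, 11.37 and 11.51 in control EtOH and 10.57, 10.41 and 10.10 in control Dex. In dKO MEFs it read 10.96, 10.79 and 10.65 in EtOH and 10.03, 10.03 and 9.99 in Dex, and all 4 groups were apart. Dex changed Irf1 by -1.04 ± 0.13 in control (adjusted p = 1.41e-04) and by -0.78 ± 0.13 in dKO MEFs (adjusted p = 0.00163). With probes adjusted as separate items, its other measured probes changed by -0.96, -0.77 and -0.11 in control MEFs. Of these, -0.77 and -0.11 were not called (adjusted p = 0.134 and 0.835). In dKO MEFs they changed by -0.57, -1.11 and -0.80, the last not called (adjusted p = 0.0755).

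Irf9 and Stat2, partners in the complex that binds the ISRE, were lower in dKO EtOH, with differences of -0.86 ± 0.15 and -0.92 ± 0.18 (adjusted p = 0.0018 and 0.00256). Irf9 read 10.25, 10.56 and 10.26 in control EtOH and 9.72, 9.59 and 9.20 in dKO EtOH. Stat2 read 8.11, 8.38 and 8.25 in control EtOH and 7.47, 7.23 and 7.27 in dKO EtOH. Both pairs of groups were apart. Further probes of Irf1 and of Irf9 did not all move the same way in dKO EtOH, and with the mean of all measured probes neither gene was called there.

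Of the 6 measured sensors of nucleic acids and their regulators, 3 were lower in dKO EtOH. Dhx58 (LGP2, a regulator of RIG-I-like sensors) read 8.01, 8.12 and 7.97 in control EtOH, 7.54, 7.47 and 7.31 in control Dex, and 6.12 to 6.79 on the 6 dKO arrays. Its difference was -1.58 ± 0.15 in dKO EtOH (adjusted p = 2.71e-05) and -0.91 ± 0.15 in dKO Dex (adjusted p = 0.00142), with a change of -0.60 ± 0.15 with Dex in control MEFs (adjusted p = 0.0164). Ddx58, which encodes RIG-I, changed by -0.54 ± 0.15 with Dex in control MEFs (adjusted p = 0.0284), and its difference of -0.40 ± 0.15 in dKO EtOH was not called (adjusted p = 0.0747). Eif2ak2 encodes PKR, a kinase that halts translation on sensing double-stranded RNA. It read 11.59, 11.95 and 11.78 in control EtOH, 11.43, 11.49 and 11.56 in control Dex, 11.11, 11.06 and 10.83 in dKO EtOH, and 10.74, 10.65 and 10.49 in dKO Dex. All 4 groups were apart, and the knockout difference was -0.77 ± 0.12 in EtOH (adjusted p = 6.85e-04) and -0.87 ± 0.12 in Dex (adjusted p = 3.61e-04). Its changes with Dex, -0.28 in control and -0.37 in dKO MEFs, were not called (adjusted p = 0.13 and 0.058). Adar, which encodes an RNA-editing enzyme, differed by -1.27 ± 0.22 in dKO EtOH (adjusted p = 0.00153), and it is one of the 3 genes that shifted with the arrays standing apart. Without those arrays the difference was -0.72, still called, and the other measured Adar probes differed by -0.42 and -0.97. Zbp1 stayed between 6.80 and 7.36 on all arrays and Trim25 was above background on 3 arrays, and neither was called in any comparison.

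Guanylate-binding proteins and immunity-related GTPases attack the membranes of intracellular pathogens. Gbp2 read 10.32, 10.69 and 10.47 in control EtOH, 9.35, 9.28 and 9.34 in dKO EtOH and 9.60, 9.55 and 9.52 in dKO Dex. Its difference was -1.17 ± 0.15 in EtOH (adjusted p = 1.83e-04). Its calls with Dex in control MEFs (-0.47 ± 0.15) and in dKO Dex (-0.46 ± 0.15) were lost in 15 and 17 of 25 alternatives. Igtp read 8.80, 9.33 and 8.86 in control EtOH, 8.19, 7.93 and 7.55 in control Dex, 7.45, 7.67 and 7.32 in dKO EtOH and 7.39, 7.09 and 6.91 in dKO Dex. It changed by -1.11 ± 0.19 with Dex in control MEFs (adjusted p = 0.0018) and differed by -1.52 ± 0.19 in dKO EtOH (adjusted p = 1.9e-04). Gbp3 changed by -1.17 ± 0.29 and -1.29 ± 0.29 in these comparisons (adjusted p = 0.014 and 0.00745), the first lost in 4 of 25 alternatives. Its other measured probe, adjusted with probes as separate items, changed by -1.88 (adjusted p = 7.05e-05) and -1.98 (adjusted p = 4.22e-05).

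Irgm1, another such GTPase, was not called in any comparison on its brightest probe, with group means of 13.84, 13.76, 14.08 and 13.45 in control EtOH, control Dex, dKO EtOH and dKO Dex. Its other measured probe, adjusted with probes as separate items, was called lower in all 4 comparisons of 2 groups. With Dex it changed by -1.19 in control (adjusted p = 5.15e-05) and by -0.58 in dKO MEFs (adjusted p = 0.00842). In dKO against control MEFs it differed by -1.02 in EtOH (adjusted p = 1.37e-04) and by -0.42 in Dex (adjusted p = 0.0338). The 2 probes disagree, and which of them reads the transcript was not tested. The brighter probe is one of the 3 that shifted with the arrays standing apart.

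Among the remaining effectors, Bst2 encodes tetherin, which holds budding viruses at the membrane. It read 10.95, 11.20 and 11.51 in control EtOH and 9.37, 10.37 and 9.69 in dKO EtOH, with no overlap, a difference of -1.41 ± 0.32 (adjusted p = 0.00748). Parp14, an ADP-ribosyltransferase, read 8.81, 9.24 and 9.22 in control EtOH and 7.02, 7.36 and 7.70 in dKO EtOH. It differed by -1.73 ± 0.23 in EtOH (adjusted p = 2.72e-04) and by -1.04 ± 0.23 in Dex (adjusted p = 0.00827). Parp14 also shifted with the arrays standing apart, and without those arrays it differed by -1.39 in EtOH and -1.29 in Dex, both still called. Lgals3bp, a secreted glycoprotein, differed by -0.97 ± 0.19 in dKO EtOH (adjusted p = 0.00324). Ifi27 was among the brightest members, at 14.28, 14.26 and 14.27 in control EtOH and 13.92, 13.72 and 13.72 in control Dex, and it changed by -0.48 ± 0.09 there (adjusted p = 0.00284). Ifitm3, which blocks viral entry, lay between 14.85 and 15.34 and was not called in any comparison, nor was Ifi35.

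The response to Dex was then compared between genotypes by the interaction, the change in dKO less that in control MEFs. Oasl2 was the one member called, at 1.33 ± 0.28 (adjusted p = 0.037), where 1.28% of all genes were called higher and 1.01% lower. That is, its fall with Dex was smaller in dKO MEFs. The estimate was above 0 for 27 of the 30 genes and below 0 for 3, against 41.2% below 0 over all genes. Its median was 0.52 against 0.08. The control EtOH arrays, used for Dex in control MEFs and for dKO in EtOH, also enter the interaction. These values are therefore not separate from those comparisons. Next by p were Ifit3 (1.07 ± 0.30, adjusted p = 0.0831), Oas2 (1.07 ± 0.31, adjusted p = 0.0881), Gbp2 (0.71 ± 0.21, adjusted p = 0.0909), Irf7 and Usp18 (0.94 ± 0.28 and 1.09 ± 0.33, both with adjusted p = 0.0931). None of these passed the threshold. The other probes of some of these genes differed from the brightest: the interaction was -0.25 and 0.25 for the other Ifit3 probes and 0.36 for the mean of the 3, and 0.87 and -0.54 for the other Usp18 probes. With probes adjusted as separate items, the dimmer Gbp3 probe was called, at 1.52 (adjusted p = 0.0302), and the brightest was not, at 0.72 (adjusted p = 0.32). In dKO EtOH Irf7 was at background on all 3 arrays and Oas2 was above it on 1 of 3. In dKO Dex 4 of the 30 genes were at background, which limits how far a fall with Dex can be read there. For Ch25h the interaction was 0.28 (95% interval -0.22 to 0.77) and for Samhd1 0.17 (-0.14 to 0.47). The Oasl2 call was lost in 14 of 24 alternatives, and leaving out 1 array gave 0 to 3 calls.

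The 12 measured genes with an ISRE core in their window and the 12 without were set side by side. With Dex in control MEFs 7 of each fell. In dKO EtOH 8 of each were lower, with median differences of -1.05 with the core and -0.73 without. Isg15, Rsad2 and Ifit3, whose ISRE cores are printed above, and Oasl2, Irf7 and Ch25h, whose windows held neither core, all fell with Dex in control MEFs.

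A further list of 51 interferon-induced genes had 27 measured. With Dex in control MEFs 9 fell (33.3%) and 1 rose (3.70%), with a median of -0.43, where 11.4% of all genes fell and 8.85% rose. In dKO EtOH 20 were lower (74.1%, against 15.8% of all genes), with a median of -0.77. In dKO Dex 10 were lower (37.0%, against 9.81% of all genes). Trim30a (-1.70 ± 0.14, adjusted p = 1.06e-05), Irgm2 (-1.57 ± 0.17), Slfn2 (-1.53 ± 0.17) and Oas1g (-1.43 ± 0.18) had the smallest p in dKO EtOH. Trim21, an antibody receptor inside cells, read 8.53, 8.78 and 8.75 in control EtOH and 7.49 to 7.89 on the other 9 arrays. Dex changed it by -1.03 ± 0.12 in control MEFs (adjusted p = 1.07e-04) and by -0.07 in dKO MEFs (adjusted p = 0.736), and its interaction of 0.96 ± 0.17 was called (adjusted p = 0.0223). With Dex in dKO MEFs 3 of the 27 fell, Plscr1, Uba7 and Ifi47, and 2 rose, Isg20 and Helz2. These shares, 11.1% and 7.41%, lay near the 5.99% and 8.62% of all genes.

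Of 15 listed receptors, kinases and factors 12 were measured. With Dex in control MEFs 25.0% of the 12 were called higher, against 8.85% of all genes. In dKO EtOH 41.7% were called lower, against 15.8% of all genes. With Dex in control MEFs 3 rose, namely Irf2 (0.78 ± 0.11, adjusted p = 4.47e-04), a factor that competes with Irf1, the type II receptor subunit Ifngr1 (0.66 ± 0.12) and the kinase gene Jak1 (0.54 ± 0.12). In dKO EtOH 5 were lower, led by Irf8 (-1.41 ± 0.19, adjusted p = 2.34e-04), Il10rb, Irf5 (-1.06 ± 0.21) and Tyk2 (-0.76 ± 0.20), and Irf8 and Irf5 are known for their roles in myeloid cells. Of 14 genes of interferon induction 10 were measured, and Tlr7, a receptor for single-stranded RNA, rose with Dex in control (1.10 ± 0.13) and dKO MEFs (1.18 ± 0.13). Tlr7 was also lower in dKO MEFs, with differences of -0.85 ± 0.13 in EtOH and -0.77 ± 0.13 in Dex. Of 11 negative regulators 7 were measured, and Ptpn6, a phosphatase of blood cells, differed by -1.12 ± 0.13 in dKO EtOH (adjusted p = 1.11e-04). Of 16 interferon genes 1 was measured, Ifnz, at 5.52 to 6.34. The probe of Ifnb1 was not above background on 3 arrays.

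Most macrophage markers were also lower in dKO MEFs. Their mean log2 difference from control EtOH was -0.30 to -0.29 on the control Dex arrays and -0.92 to -0.69 on the dKO EtOH arrays. These ranges were apart, whereas those of the set overlapped. The ranges of the further interferon-induced genes were also apart, at -0.42 to -0.36 in control Dex and -0.83 to -0.75 in dKO EtOH. In dKO EtOH 13 of the 14 measured were lower (92.9%, against 15.8% of all genes), with a median of -0.88. In dKO Dex 11 were lower (78.6%, against 9.81% of all genes), with a median of -0.67. With Dex in control MEFs 8 fell (57.1%) and 3 rose (21.4%), against 11.4% and 8.85% of all genes. In dKO MEFs 3 fell (21.4%) and 2 rose (14.3%), against 5.99% and 8.62% of all genes. Their summed linear level was 160762 to 170993 in control EtOH, 136496 to 147018 in control Dex, 98747 to 119569 in dKO EtOH and 90798 to 93716 in dKO Dex. Mrc1 and C1qa, markers that rose with Dex in both genotypes, went against Aif1, Cd53 and Fcer1g, which fell in both. The endothelial markers Vwf and Emcn were both lower in dKO EtOH, with differences of -1.76 and -1.04 (adjusted p = 0.00271 and 1.5e-04), and Vwf was lower in dKO Dex (-1.41, adjusted p = 0.0118). Emcn rose with Dex by 1.09 in control and 1.86 in dKO MEFs, against the direction of the set. Cd3e, a T-cell marker, rose with Dex in dKO MEFs (1.18, adjusted p = 0.00755), was higher in dKO than in control MEFs in Dex (0.75, adjusted p = 0.0487) and was not called in the other comparisons. Of the 10 measured fibroblast markers 7 were higher and 1 lower in dKO EtOH, against 10.7% and 15.8% of all genes. The sum of the fibroblast markers was 64644 to 68397 in control EtOH and 99748 to 109227 in dKO EtOH. The part of these cell types in the levels of the interferon-stimulated genes was not tested.

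**Figure D5:**
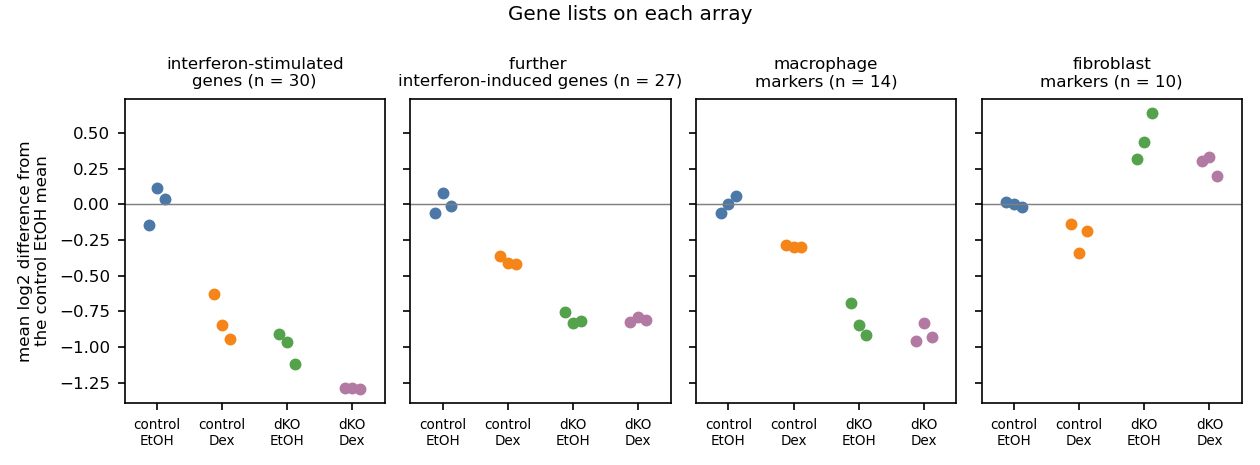
Mean log2 level of 4 gene lists on each array, less the mean of the control EtOH arrays, for the 30 interferon-stimulated genes, 27 further interferon-induced genes, 14 macrophage markers and 10 fibroblast markers. Points are arrays, and the first 3 lists lie below 0 in control Dex and both dKO groups, whereas the fibroblast markers lie above 0 in both dKO groups.

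Of the 15 listed genes with a probe that were not measured, Ifit1, Oas1a, Oas3, Mx1, Iigp1, Ifitm1, Ifi205, Parp9, Xaf1, Rtp4 and Sp100 were above background on no array, and Oasl1, Mx2, Ifih1 and Ifi204 on 1. Their log2 levels lay between 4.49 and 6.94. Just inside the threshold were Trim25, on 3 arrays, and Irf7, on 4, 3 of them control EtOH. Herc6, Ifi203, Dtx3l and Ifi44 had no named probe. Counts over the 30 measured genes therefore leave out members that passed on no group, and a gene bright in 1 group alone, as Irf7 was, had to differ between groups.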

How the data were processed

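The 12 arrays are grouped by genotype and treatment as the labels give them. Per the file headers, the authors deposited intensities as mean bead signals per probe without background subtraction or scaling, with detection p-values against negative controls beside them. GenomeStudio is named, with no version, in the submitters' processing notes. A further deposited table of intensities served only as an alternative. Signals were background corrected from the detection p-values (nec of limma 3.58.1 in R 4.3.3, offset 16), quantile normalized and brought to log2. Symbols came from the platform annotation, and Entrez identifiers brought 23962 of the 23978 named probes up to date, 1719 further probes being unnamed.

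With limma, group means were estimated in 1 linear model of all 12 arrays, with empirical Bayes moderation (11.5 degrees of freedom). Adjusted p-values are Benjamini-Hochberg over 8420 genes of a comparison, two-sided. The pipeline was tested on simulated data. A group is at background when 0 of its 3 arrays is above it. Bounds ("at least N-fold") compare the mean of the brighter group with the dim group, each dim array raised to its lowest above-background value (log2 6.09 to 6.35).

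Named are all measured members, with values by array for those called (or the 10 with the smallest p), and up to 4 genes of each pathway list per comparison. The members and lists were chosen with earlier results of these data known, so their counts are descriptions. Alternatives tried were median scaling, no background correction, an offset of 50, the deposited table, no filter, a detection p of 0.05, the mean of probes, eBayes with trend and robust, array weights, only the compared groups, replicate blocks and leaving out each array. Leaving out the 3 arrays that stand apart, and probes as separate items, were added after the data were seen. The replicate numbers were not taken to pair arrays, since residuals of same-numbered arrays correlated between -0.18 and 0.14. Pairs of Dex with EtOH arrays correlated below 0, and the 3 of 12 pairs over 0.1 were of control with dKO arrays.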

Additional observations from a re-analysis of the deposited data

Results flagged for a closer look

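By the interaction of the fit over all genes, 3 genes of the member, pathway and marker lists were called, all higher. Over all genes, 1.28% were called higher and 1.01% lower, so the number called is not a result about the lists. Oasl2 had an interaction of 1.33 (adjusted p = 0.037, lost in 14 of 24 alternatives), with a change of -1.77 in control and -0.44 in dKO MEFs. Trim21, of the further interferon-induced genes, had 0.96 (adjusted p = 0.0223), with -1.03 in control and -0.07 in dKO MEFs. The macrophage marker Aif1 had 0.79 (adjusted p = 0.0488), with -1.32 in control and -0.52 in dKO MEFs. In each of the 3, the control EtOH arrays lay above the 9 others.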

How the results depend on the processing

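The number of members called with Dex in control MEFs (19) was 12 to 21 when 1 array was left out, the lowest without control EtOH array 2. For Dex in dKO MEFs (5) it was 4 to 13, the highest without dKO EtOH array 3, and it was 15 with array weights and 3 without the 3 arrays that stood apart. In dKO against control it was 18 to 22 in EtOH (20) and 9 to 15 in Dex (14). The interaction (1) gave 0 to 3 calls with 1 array left out. It gave 3 without background correction, 8 with median scaling, 4 on the deposited table, 2 with an offset of 50, 0 without a filter, 11 with array weights and 2 with probes as separate items. With the replicate number as a block it gave 0, as it did with the replicate block within genotype. The replicate block gave 17, 5, 20 and 11 calls in the other comparisons, and the block within genotype 13, 5, 19 and 10. Irgm1 in dKO EtOH turned to -0.39 (adjusted p = 0.0331) with the mean of its probes, from 0.24. Under median scaling the all-gene median in dKO EtOH went from -0.05 to -0.25 and the calls from 903 higher and 1333 lower to 518 and 2589. For Dex in control MEFs these went from 745 and 962 to 482 and 1312, for Dex in dKO MEFs from 726 and 504 to 871 and 343, and for the interaction from 108 and 85 to 596 and 101. The members' median less that of all genes kept its direction in each. Levels near background limit Oas2, Rsad2, Cmpk2, Irf7 and Trim25 in dKO MEFs. The cause of these differences was not tested.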
